A study of Rattus norvegicus with 6 samples.

Results

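The genes described here drive the cell division cycle. A list of 60 rat genes was drawn up by their known roles in the cycle. It covered the G1/S transition, DNA replication, the G2/M transition, the spindle and the inhibitors that brake the cycle. Earlier results of these data were known when the genes were chosen, so counts and medians over the list are only descriptive. Of the 60 genes, 28 had a probe whose accession matched their symbol, and all 28 were bright enough to be tested, among 21850 genes or probes tested in all. The other 32 were not analysed here. The tested samples were 3 arrays of LIPUS-treated cells and 3 arrays of untreated control cells. LIPUS is low-intensity pulsed ultrasound, a mechanical stimulus given to cultures as short bursts of sound waves. Both groups were bone marrow cells of male rats aged 8 weeks, kept under osteogenic conditions, which drive marrow stromal cells towards bone formation, and taken on day 10. The strain is not given in the sources used here, and nothing in the labels tells whether replicates were separate animals or cultures. The p-values then measure only the spread between these arrays, which may be technical.

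Progress through the cell cycle depends on cyclins, which are made and destroyed in turn, and on the kinases they switch on. D-type cyclins with Cdk4 carry a cell out of G1, DNA is copied in S phase by a machinery that includes the Mcm helicase and the Pcna clamp, and cyclins A and B with Cdk1 bring on mitosis. Inhibitors such as p21 and p27 hold the kinases in check, and in marrow cultures stromal cells commonly divide early and leave the cycle as they mature towards osteoblasts.

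Each array's levels are on a log2 scale on which the 75th percentile of its gene probes is 0. Probes above background made up 53.5% to 61.9% of each array, and none of the probes used for the 28 genes reached the scanner limit. Of the 28 genes, 27 were above background on all 6 arrays. The exception was Tacc3, which was above it on 1 of 3 LIPUS arrays and on all 3 control arrays. The tilt and place of the scanned grids put control 3 and the 3 LIPUS arrays on 1 slide and control 1 and control 2 on another. The labels name no slide, so this assignment was inferred from the spot positions. The osteoblast list had 10 of its 13 markers measured, with Col1a2, Bglap, Sparc and Spp1 so bright that their spots reached the scanner limit on each of the 6 arrays.

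Of the 28 genes, 7 fell, none rose and 21 did not pass the test (limma, Benjamini-Hochberg adjusted p under 0.05 over all tested genes). The 7 were the replication clamp Pcna, the mitotic genes Ccna2, Ccnb2, Cdk1, Foxm1 and Plk1, and the chromosomal passenger gene Birc5. For comparison, 3.74% of all tested genes were called lower and 2.89% were called higher. At an unadjusted p under 0.05 there were 16 of the 28, against 4828 of all 21850, which were not split by direction. Of the 16, 15 were lower and 1 was higher (Cdkn1a). The median change, LIPUS minus control, was −0.41 over the 28 genes and 0.03 over all tested genes. A total of 22 of the 28 changes were below 0, against 10049 of all 21850.

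The 3 LIPUS arrays lay below all 3 control arrays for 14 of the 28 genes and above them for 2. Over all tested genes, such a separation was seen downwards in 12.7% and upwards in 14.4%. The mean level over the 28 genes was 0.67 ± 0.05 in LIPUS and 1.07 ± 0.05 in control (SD, n = 3 each). In bulk RNA of a mixed culture, fewer cells of a type and less RNA per cell cannot be told apart.

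**Figure D1:**
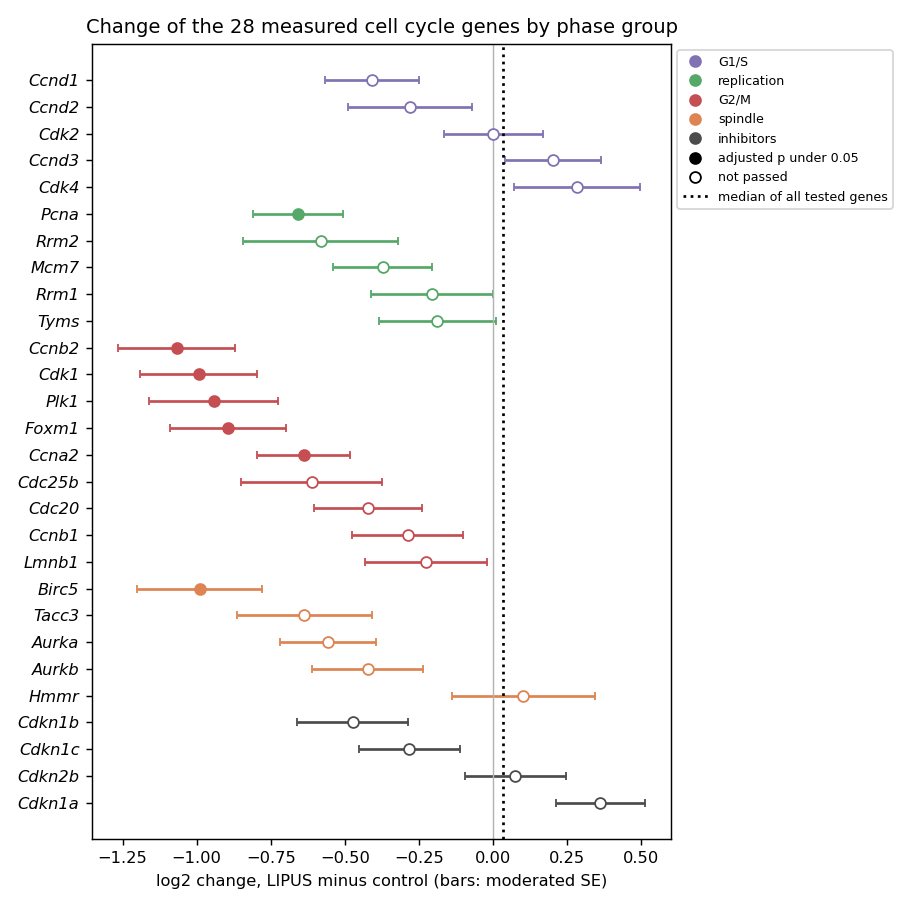
Log2 change (LIPUS minus control, horizontal axis) of each of the 28 measured genes, coloured by phase group, with moderated standard errors as bars; filled points passed an adjusted p of 0.05 and the dotted line is the median of all tested genes. All 9 G2/M genes lie below 0, while the G1/S genes and the inhibitors lie on both sides.

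By phase, the median change was −0.64 over 9 G2/M genes, −0.56 over 5 spindle genes, −0.37 over 5 replication genes, −0.10 over 4 inhibitors and 0.00 over 5 G1/S genes. G2/M genes fell in 5 of 9 cases, spindle genes in 1 of 5 and replication genes in 1 of 5. None of the G1/S genes or inhibitors passed in either direction (at an unadjusted p under 0.05, 1 G1/S gene was lower, and 1 inhibitor was lower and 1 higher). The mean level of the G2/M genes was 0.35, 0.38 and 0.33 on the LIPUS arrays, against 1.08, 1.04 and 0.96 on the control arrays. Every LIPUS array lay below every control array, with a gap wider than the spread within either group. The differences between phase groups were not tested. Their order depended on the setting. With the inferred slide as a fixed block the medians were −0.74 for spindle, −0.59 for G2/M, −0.58 for replication, −0.20 for G1/S and −0.09 for inhibitor genes. The G1/S median was −0.26 in the authors' deposited value table and −0.34 with scaling to spike-in spots.

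**Figure D2:**
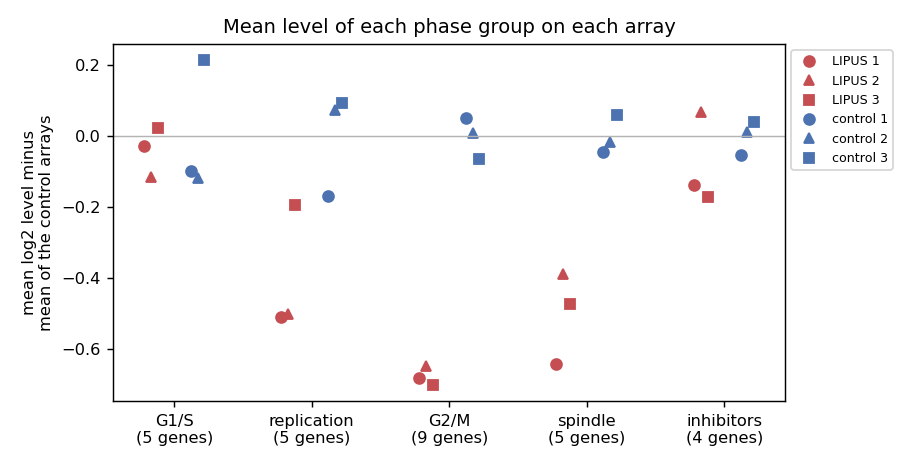
Mean log2 level of each phase group on each array, minus the mean of the control arrays, with 1 point per array for LIPUS and control. The LIPUS arrays sit below the control arrays for replication, G2/M and spindle genes, and the groups overlap for G1/S genes.

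Of the 9 G2/M genes, Ccnb2, Cdk1, Foxm1, Plk1 and Ccna2 fell. Ccnb2 (NM_001009470) encodes cyclin B2, a partner of Cdk1 at entry into mitosis. Its level was 0.14, 0.50 and −0.20 in LIPUS, against 1.18, 1.23 and 1.23 in control. All LIPUS arrays were lower and varied more than the control arrays, which were nearly equal. The change was −1.07 ± 0.20 (SE, n = 3 each, adjusted p = 0.0125), a 2.09-fold lower level, and 1.59% of all tested genes changed further downwards. Cdk1 (NM_019296), the kinase that triggers mitosis, had levels of 3.02, 2.67 and 2.62 in LIPUS, against 3.66, 4.07 and 3.56 in control. The groups did not overlap, and the change was −0.99 ± 0.20 (SE, n = 3 each, adjusted p = 0.0171). It was 1.99-fold lower, the next largest fall among the G2/M genes.

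Foxm1 (NM_031633) encodes the forkhead factor that activates many G2/M genes. Levels were −0.17, −0.60 and −0.84 in LIPUS, against 0.41, 0.26 and 0.41 in control. Every LIPUS array lay below 0 and every control array above it. The change was −0.89 ± 0.20 (SE, n = 3 each, adjusted p = 0.0266), or 1.86-fold lower. Plk1 (NM_017100), polo-like kinase 1, acts in mitotic entry, spindle assembly and cytokinesis. Its levels were 1.00, 1.44 and 1.58 in LIPUS, against 2.44, 2.47 and 1.93 in control. Control 3 was the lowest of the control arrays but still above all LIPUS arrays, and the change was −0.94 ± 0.22 (SE, n = 3 each, adjusted p = 0.0322). Ccna2 (NM_053702) encodes cyclin A2, which works with Cdk2 in S phase and with Cdk1 in G2. Its levels of 1.06, 1.08 and 0.98 in LIPUS lay below the 1.74, 1.52 and 1.78 in control. The change was −0.64 ± 0.16 (SE, n = 3 each, adjusted p = 0.042), or 1.56-fold lower. Second probes existed for Plk1 and Ccna2. They gave smaller changes of −0.46 and −0.42 (adjusted p = 0.165 and 0.203 with every probe tested on its own), also without overlap of the groups.

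**Figure D3:**
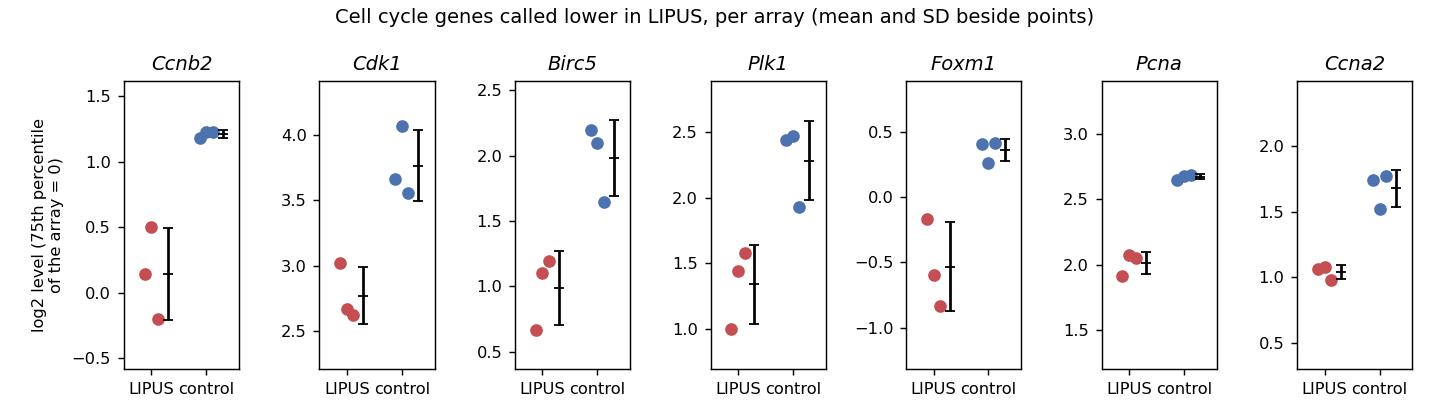
Log2 level (75th percentile of the array = 0) of the 7 genes called lower in LIPUS, 1 panel per gene, with each array as a point and the mean and SD beside the points. In each panel the 3 LIPUS arrays lie below the 3 control arrays.

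The other 4 G2/M genes did not pass the test. Cdc20 (NM_171993), the activator of the anaphase-promoting complex, averaged 0.89 ± 0.28 in LIPUS and 1.31 ± 0.05 in control (SD, n = 3 each). Its groups did not overlap, and the change was −0.42 ± 0.18 (SE, adjusted p = 0.209). Cdc25b (NM_133572) encodes a phosphatase that removes inhibitory phosphates from Cdk1. It had levels of −1.23, −1.49 and −0.76 in LIPUS, against −0.18, −0.88 and −0.59 in control. The groups overlapped through LIPUS 3 and control 2 (−0.61 ± 0.24, SE, adjusted p = 0.169). Lmnb1 (NM_053905), which encodes the nuclear envelope protein lamin B1, changed by −0.22 ± 0.21 (SE, adjusted p = 0.563), with overlapping groups.

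Ccnb1 (NM_171991), the gene of cyclin B1, did not pass in the spot tables. Its levels were 0.21, 0.20 and 0.36 in LIPUS, against 0.20, 0.68 and 0.75 in control. Control 1 was as low as the LIPUS arrays, and the change was −0.29 ± 0.19 (SE, n = 3 each, adjusted p = 0.411). A second Ccnb1 probe gave −0.08. The authors' deposited value table gave another picture for the same probe. There the levels were 0.06, 0.33 and −0.34 in LIPUS, against 1.11, 1.00 and 1.33 in control, without overlap. The change from that table was −1.13 with an adjusted p of 0.051. How the authors made the table is not given in the sources used here, so the source of this discrepancy was not tested.

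Promoters of late cell cycle genes are known to carry CCAAT boxes, bound by the factor NF-Y, and a cell cycle homology region (CHR), bound by the DREAM complex and by a MuvB complex that includes Foxm1. RefSeq promoter windows of 300 bases on GRCr8, from 250 bases before to 50 bases after the annotated start, were found for 21 of the 28 genes. There was no entry for Ccnd1, Ccnd2, Rrm2, Ccna2, Foxm1, Aurkb and Cdkn1c. The letters CCAAT, on either strand, occurred in 16 of the 21 windows (76.2%), against 37.7% of 27457 RefSeq rat promoters. They occurred in all 7 G2/M windows. A CHR was searched as the letters TTTGAA, and also as the letters TTCGAA, on either strand. It occurred in 12 of 21 (57.1%), against 19.5% of all promoters. A CHR lay in 6 of 7 G2/M windows and in 0 of 3 G1/S windows. For E2F sites the letters TTCCCGC were searched on either strand, with the variant letters TTGGCGC, the further letters TTCGCGC and the last letters TTGCCGC. They occurred in 7 of 21 (33.3%), against 10.0% of all promoters, and in 3 of 4 replication windows. The E2F letters can overlap a CCAAT box or each other. Letter matches describe the sequence and do not show that a factor is bound.

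The 250 bases before the start are shown for 3 of the genes that fell, and for Hmmr, which holds the same letters but did not pass the test. They are written 5′ to 3′ on the strand of the gene, from RefSeq GRCr8, with CCAAT boxes on either strand and CHR letters in capitals. Ccnb2 lies on the minus strand at chr8:79981659-79981908, Cdk1 on the plus strand at chr20:19265043-19265292, Birc5 on the plus strand at chr10:103571896-103572145 and Hmmr on the minus strand at chr10:25665216-25665465.
Ccnb2: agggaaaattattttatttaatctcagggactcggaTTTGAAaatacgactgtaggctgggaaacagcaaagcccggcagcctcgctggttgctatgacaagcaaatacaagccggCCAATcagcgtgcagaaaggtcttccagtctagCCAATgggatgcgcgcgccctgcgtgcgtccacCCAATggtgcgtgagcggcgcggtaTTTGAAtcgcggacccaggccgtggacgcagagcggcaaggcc
Cdk1: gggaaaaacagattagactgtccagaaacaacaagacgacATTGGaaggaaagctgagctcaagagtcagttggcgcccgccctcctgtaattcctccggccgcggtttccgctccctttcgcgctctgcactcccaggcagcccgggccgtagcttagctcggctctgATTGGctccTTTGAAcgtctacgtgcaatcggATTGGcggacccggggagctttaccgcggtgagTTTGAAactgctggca
Birc5: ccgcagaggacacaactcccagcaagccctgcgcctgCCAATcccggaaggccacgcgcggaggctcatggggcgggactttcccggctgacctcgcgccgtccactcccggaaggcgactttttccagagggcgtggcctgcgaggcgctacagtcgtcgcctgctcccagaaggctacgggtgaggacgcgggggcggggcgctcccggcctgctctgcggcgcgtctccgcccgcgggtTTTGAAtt
Hmmr: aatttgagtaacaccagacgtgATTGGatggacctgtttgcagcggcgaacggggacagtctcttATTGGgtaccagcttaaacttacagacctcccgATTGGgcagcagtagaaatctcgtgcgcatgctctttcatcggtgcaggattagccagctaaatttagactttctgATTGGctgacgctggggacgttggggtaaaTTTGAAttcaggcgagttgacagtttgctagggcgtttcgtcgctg

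Counted from the start of the gene, the CCAAT boxes of Ccnb2 begin at −134, −101 and −68, and CHR letters lie at −214 and −43. Cdk1 has boxes at −210, −81 and −49, with CHR letters at −72 and −16. Birc5 has a single box far upstream, at −213, and CHR letters next to the start, at −8. Hmmr has boxes at −228, −185, −152 and −76 and a CHR at −46. Among genes that fell, 5 of the 5 with a window held a CCAAT box and 4 held a CHR, the exception being Pcna. Of the 16 genes with a window that did not pass, 11 held a CCAAT box and 8 held a CHR.

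Among the spindle and chromosome genes, Birc5 (NM_022274) fell. It encodes survivin, a subunit of the chromosomal passenger complex that also restrains cell death. Its levels were 0.67, 1.11 and 1.20 in LIPUS, against 2.19, 2.10 and 1.65 in control. The groups did not overlap, and control 3 lay nearest to the LIPUS arrays. The change was −0.99 ± 0.21 (SE, n = 3 each, adjusted p = 0.0236), or 1.98-fold lower. In the authors' deposited value table, Birc5 was the only one of the 28 genes called, with a change of −1.40 (adjusted p = 0.0272).

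The other spindle genes did not pass. Aurka (NM_153296) encodes Aurora A, a kinase of the centrosomes and spindle poles. Levels were −0.54, −0.67 and −0.56 in LIPUS, against −0.07, −0.18 and 0.15 in control. All LIPUS arrays were lower, and the change of −0.56 ± 0.16 (SE, n = 3 each) had an adjusted p of 0.0751. Aurkb (NM_053749) encodes Aurora B, the kinase of the complex that holds survivin. It averaged −1.27 ± 0.04 in LIPUS and −0.84 ± 0.31 in control (SD, n = 3 each), without overlap (change −0.42 ± 0.19, SE, adjusted p = 0.222). Tacc3 (NM_001004424), which helps stabilise spindle microtubules, was dim, with levels of −2.37, −2.13 and −1.68 in LIPUS and of −1.77, −1.24 and −1.25 in control. Its groups overlapped through LIPUS 3 and control 1 (−0.64 ± 0.23, SE, adjusted p = 0.136). Hmmr (NM_012964), a hyaluronan receptor that also binds spindle microtubules, had levels of −1.50, −0.85 and −1.86 in LIPUS, against −1.49, −1.46 and −1.57 in control. It was the one spindle gene with a change above 0, at 0.10 ± 0.24 (SE, adjusted p = 0.842), and its 95% interval ran from −0.44 to 0.64.

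Of the replication genes, Pcna (NM_022381) fell. It encodes the sliding clamp that holds DNA polymerase on its template. Its levels were 1.92, 2.08 and 2.05 in LIPUS, against 2.65, 2.68 and 2.69 in control. The arrays of each group lay close together and the groups were well apart, and the change was −0.66 ± 0.15 (SE, n = 3 each, adjusted p = 0.0319), or 1.58-fold lower. A second Pcna probe read 0.98, 0.83 and 0.75 in LIPUS, against 0.83, 1.04 and 1.30 in control. Its groups overlapped, with a change of −0.20 (adjusted p = 0.543).

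The other 4 replication genes had changes below 0 that did not pass. Mcm7 (NM_001004203), a subunit of the replicative helicase, had levels of −0.19, 0.13 and 0.18 in LIPUS, against 0.36, 0.41 and 0.47 in control. The groups did not overlap (change −0.37 ± 0.17, SE, n = 3 each, adjusted p = 0.226). Rrm2 (NM_001025740) encodes the small subunit of ribonucleotide reductase, which makes deoxyribonucleotides. The arrays read −1.50, −1.67 and −0.62 in LIPUS, against −0.86, −0.66 and −0.54 in control. LIPUS 3 lay among the control arrays, and the change was −0.58 ± 0.26 (SE, adjusted p = 0.23). Without LIPUS 3 the adjusted p for Rrm2 was 0.045, and with another array left out it reached up to 0.516. A second Rrm2 probe gave −0.11 (adjusted p = 0.783). Its partner Rrm1 (NM_001013236) changed by −0.21 ± 0.21 and Tyms (NM_019179), thymidylate synthase, by −0.19 ± 0.20 (SE, adjusted p = 0.602 and 0.621), both with overlapping groups.

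The G1/S genes showed no common direction. Ccnd1 (NM_171992) encodes cyclin D1, which couples growth signals to the G1 kinases. Its levels were 3.57, 3.70 and 3.84 in LIPUS, against 4.18, 4.04 and 4.11 in control. The groups did not overlap, and the change was −0.41 ± 0.16 (SE, n = 3 each, adjusted p = 0.167). A second Ccnd1 probe read 3.24, 3.30 and 2.99 in LIPUS, against 4.30, 4.14 and 3.76 in control. That probe changed by −0.89 ± 0.19 (SE) and had an adjusted p of 0.023 when every probe was tested on its own, so the call for Ccnd1 depended on the probe.

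The other D-type cyclins and their kinases did not pass. Ccnd3 (NM_012766), cyclin D3, averaged 2.72 ± 0.11 in LIPUS and 2.52 ± 0.14 in control (SD, n = 3 each), and every LIPUS array was higher (change 0.20 ± 0.16, SE, adjusted p = 0.497). Ccnd2 (NM_022267), cyclin D2, changed by −0.28 ± 0.21 (SE, adjusted p = 0.465), with overlapping groups. Cdk4 (NM_053593), the main G1 kinase partner of the D cyclins, had levels of 3.02, 3.05 and 3.03 in LIPUS, against 2.54, 2.48 and 3.23 in control. Control 3 was above all LIPUS arrays, so the change of 0.28 ± 0.21 (SE, adjusted p = 0.469) turned to −0.20 against control 3 alone. Cdk2 (NM_199501), the kinase partner of cyclins E and A, did not pass either (0.00 ± 0.17, SE, adjusted p = 0.996, 95% interval −0.37 to 0.37).

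None of the 4 inhibitors passed the test. Cdkn1a (NM_080782) encodes p21, which is induced by p53 and blocks cyclin-dependent kinases. Its levels were 5.18, 5.27 and 5.32 in LIPUS, against 4.86, 4.95 and 4.88 in control. All LIPUS arrays were higher, and the change was 0.36 ± 0.15 (SE, n = 3 each, adjusted p = 0.195). A second Cdkn1a probe gave −0.08, and scaling to spike-in spots reduced the change of the first to 0.02. Cdkn1b (NM_031762) encodes p27, which accumulates in cells that leave the cycle. It had levels of 1.10, 1.48 and 0.99 in LIPUS, against 1.60, 1.52 and 1.86 in control. The LIPUS arrays were lower (−0.47 ± 0.19, SE, n = 3 each, adjusted p = 0.175), but a second probe gave −0.04. Cdkn1c (NM_001033757), the gene of p57, averaged 3.73 ± 0.21 in LIPUS and 4.02 ± 0.09 in control (SD, n = 3 each), without overlap (−0.28 ± 0.17, SE, adjusted p = 0.369). The 3 other Cdkn1c probes gave −0.20, −0.05 and −0.11, each with overlapping groups. Cdkn2b (NM_130812) encodes p15, which inhibits Cdk4 and Cdk6. Its levels were −0.95, −0.75 and −0.83 in LIPUS, against −1.14, −0.75 and −0.87 in control, with overlap, and the change was 0.08 ± 0.17 (SE, adjusted p = 0.831).

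A wider list, also drawn up with earlier results known, held 234 other genes of the cell cycle, 101 of them measured. At an unadjusted p under 0.05, 29 of the 101 were lower and 7 higher, against 4828 of all 21850 in either direction. Of the 101, 12 fell, 1 rose and 88 did not pass, and the median change was −0.22. With the inferred slide as a fixed block 1 of these 13 calls remained, Stmn1 (adjusted p = 0.0377), and the others had an adjusted p of 0.0583 to 0.303. With the slide as a random block 7 falls remained (Stmn1, Pttg1, Spag5, Kifc1, Kif15, Kif22 and Chaf1b), as did the rise of Gadd45b. Of the 17 G2/M genes among them, 3 were called lower and none higher (4 lower and 0 higher at an unadjusted p under 0.05). The median change of the 17 was −0.18, with 12 below 0 and 5 above it, against −0.64 over the 9 G2/M genes of the first list. Stmn1 (NM_017166) encodes stathmin, which destabilises microtubules and is regulated through mitosis. It had levels of 2.58, 2.61 and 2.36 in LIPUS, against 3.78, 3.72 and 3.83 in control. The groups were far apart (−1.26 ± 0.16, SE, n = 3 each, adjusted p = 0.00199). Pttg1 (NM_022391) encodes securin, which inhibits separase and so keeps sister chromatids from parting before anaphase. Its arrays read 2.21, 2.25 and 1.92 in LIPUS, against 3.51, 3.53 and 3.26 in control, also without overlap (−1.30 ± 0.17, SE, n = 3 each, adjusted p = 0.00262). The condensin subunit gene Ncapg2 (XM_343124) averaged 0.06 in LIPUS and 0.87 in control (adjusted p = 0.0253).

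Of 26 other spindle and cytokinesis genes, 4 fell, none rose (9 lower, with Cenpu, and 2 higher at an unadjusted p under 0.05), and 22 changes were below 0 (median −0.35). The 4 encode the spindle protein Spag5 (NM_001044224) and the motor proteins Kifc1 (NM_001005878), Kif22 (NM_001009645) and Kif15 (NM_181635). Spag5 had levels of 0.07, 0.20 and −0.11 in LIPUS, against 1.09, 1.18 and 0.83 in control (−0.98 ± 0.17, SE, n = 3 each, adjusted p = 0.0101). Kif22 changed by −1.12 ± 0.23, Kif15 by −0.86 ± 0.19 and Kifc1 by −0.73 ± 0.15 (SE, adjusted p = 0.0191, 0.0277 and 0.0223). In all 4 the LIPUS arrays lay below the control arrays.

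Of 33 other replication genes, 3 fell, none rose (12 lower and 0 higher at an unadjusted p under 0.05), and 25 changes were below 0 (median −0.33). They were Chaf1b (NM_001024741), a chromatin assembly factor subunit (−0.79 ± 0.16, SE, adjusted p = 0.0191), Dctpp1 (NM_138892), a nucleotide-cleaning enzyme (−0.82 ± 0.18, SE, adjusted p = 0.0246), and Pold2 (NM_001013050), a DNA polymerase delta subunit (−0.64 ± 0.16, SE, adjusted p = 0.0416). The 10 other G1/S genes had a median change of 0.11, with 4 below 0 and 6 above it (2 lower and 0 higher at an unadjusted p under 0.05). Only 1 was called, Rbl2 (NM_031094), which encodes the retinoblastoma relative p130 that represses E2F targets in resting cells. It averaged 2.33 in LIPUS and 2.99 in control (−0.66 ± 0.16, SE, adjusted p = 0.0434).

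The 15 other inhibitor and checkpoint genes went both ways, with 1 called higher, 1 called lower and a median of 0.18. At an unadjusted p under 0.05, 5 were higher and 2 lower, and 10 changes were above 0 and 5 below it. Gadd45b (NM_001008321), a stress gene that can slow the cycle at G2/M, had levels of 3.07, 2.72 and 3.06 in LIPUS, against 1.71, 2.13 and 1.88 in control (1.05 ± 0.18, SE, n = 3 each, adjusted p = 0.00991). All LIPUS arrays were higher. Btg2 (NM_017259), an antiproliferative gene induced by p53, had levels of 1.53, 0.99 and 1.52 in LIPUS, against 2.59, 2.79 and 1.99 in control. All LIPUS arrays were lower (−1.11 ± 0.24, SE, n = 3 each, adjusted p = 0.026).

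Most calls among cell type markers were in the macrophage, endothelial and osteoblast lists. The lists of other cell types held only 1 to 6 measured markers each, so shares called were not compared between cell types. Of 15 macrophage markers listed, 12 were measured, and 7 of the 12 fell. C1qb, Lyz2, C1qa and Cd68 reached the scanner limit on some or all arrays. The mean level of the other 8 was 1.96 to 2.29 in LIPUS and 3.54 to 3.72 in control. The mean of 5 endothelial markers, of 12 listed, was −0.98 to −0.89 in LIPUS and 0.10 to 0.17 in control, and 4 of the 5 fell, while Pecam1, Emcn and Flt1 were too dim to be tested. Of the 10 osteoblast markers 3 rose, and the mean of the 6 that stayed below the scanner limit was 3.20 to 3.44 in LIPUS and 2.42 to 2.60 in control. No osteoclast, B cell, erythroid or T and NK cell marker was called (3, 1, 1 and 4 measured). Of 6 mast cell markers 1 fell, and 1 of 2 neutrophil and 1 of 6 adipocyte markers rose. Of 4 megakaryocyte markers 1 fell and 1 rose. Over all tested genes, 3.74% were called lower and 2.89% higher. The part of these marker shifts in the lower level of late cell cycle genes was not tested.

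Whether the 7 falls passed the test depended on how the inferred slide entered the fit. Without it the changes were −1.07 for Ccnb2, −0.89 for Foxm1, −0.64 for Ccna2 and −0.66 for Pcna. Those of Cdk1, Birc5 and Plk1, which were smaller within the slide, were −0.99, −0.99 and −0.94. With the slide as a fixed block, which rests on control 3 as the only control beside the LIPUS arrays, all 7 changes stayed below 0. That sign was fixed in advance, since control 3 lay above all LIPUS arrays for each of the 7. None of the 28 genes passed (12 at an unadjusted p under 0.05). Over all 21850 tested, only 282 passed in this fit, and 3524 had an unadjusted p under 0.05. Within that slide the changes were −1.08 for Ccnb2, −0.94 for Foxm1, −0.79 for Cdk1, −0.74 for Ccna2, −0.67 for Pcna, −0.66 for Birc5 and −0.59 for Plk1, with adjusted p from 0.127 to 0.321. With the slide as a random block, Ccnb2, Cdk1 and Foxm1 passed (adjusted p = 0.0228, 0.0362 and 0.0444). In that fit 1013 of all 21850 tested passed. Leaving out 1 array at a time, Ccnb2 passed in all 6 cases (adjusted p 0.0144 to 0.0482) and Ccna2 in none (0.0545 to 0.139). The count called among the 28 was 1 without control 1, control 2 or LIPUS 2, 3 without LIPUS 1 and 5 without control 3, against 7 with all arrays. It was 4 without LIPUS 3, namely 3 of the 7 and Rrm2. Over all 21850 tested, the calls in these fits ran from 642 without control 1 to 2167 without control 3, against 1449 with all arrays.

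Scaling to spike-in spots lowered the median change of all tested genes by 0.35 on the log2 scale and that of the 28 genes by the same amount, since it moves all genes of an array alike. Under it 16 of the 28 genes and 3477 of all 21850 tested were called lower, against 7 and 817 in the main setting. The median change under it was −0.76 for the 28 genes and −0.31 for all tested genes. The changes of Ccnd3, Cdk4 and Hmmr, above 0 in the main setting, were not above 0 in every alternative, and neither was that of Cdkn2b.

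**Figure D4:**
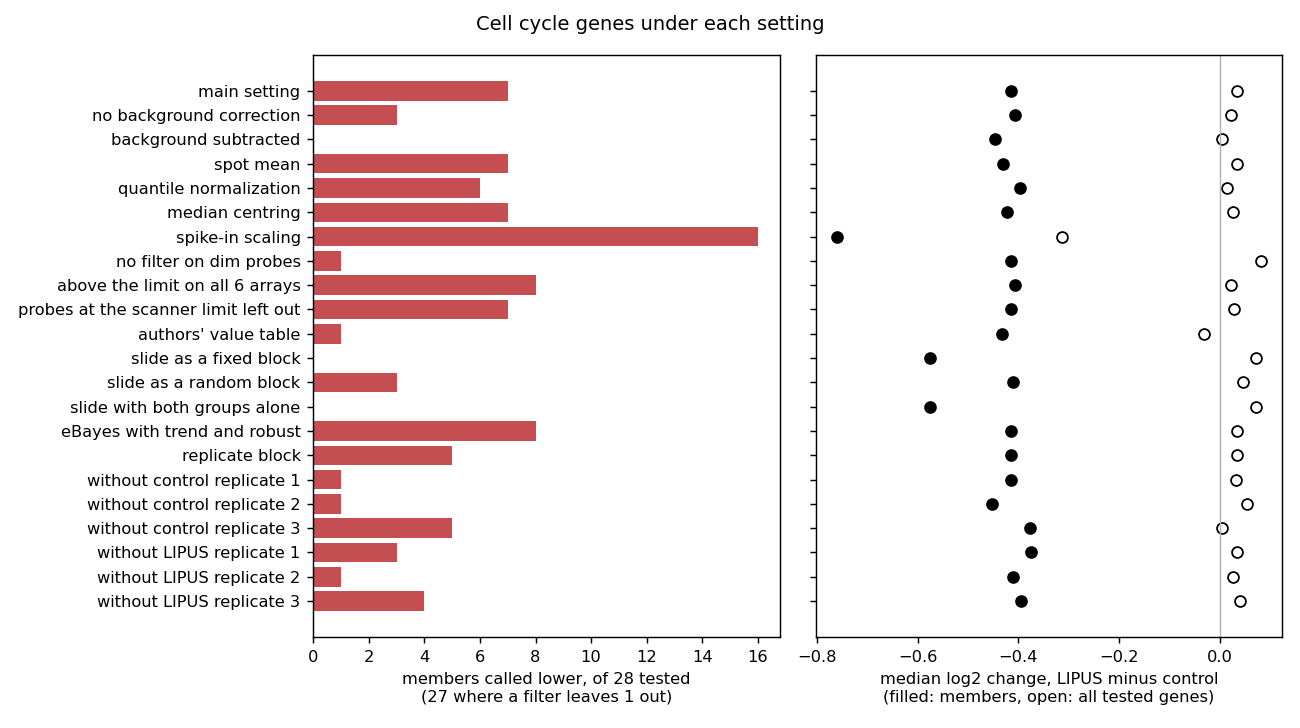
Number of the 28 genes called lower in LIPUS under each setting (bars, left) and median log2 change, LIPUS minus control (right), with filled points for the 28 genes and open points for all tested genes. The filled point lies below 0 and below the open point in each setting, while the number called runs between 0 and 16.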

How the data were processed

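Cy3-labelled RNA of 3 LIPUS and 3 control samples was read on 1 single-colour Agilent rat array each. Per the file headers, the deposited spot tables hold spot and local background brightness as intensity, in whole numbers up to a scanner limit of 65535, without normalization. Their percent of saturated pixels, as deposited, was not used. The authors' value table is on a log2 scale with a 75th percentile of 0, found from its values. How the authors made it is not given in the sources used here.

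Spot medians were background corrected with limma's normexp (offset 50), put on the log2 scale, averaged over spots of a probe and scaled to each array's 75th percentile. A planned processed signal and background flag are not columns of these tables, so normexp and the negative controls took their place. A probe was kept if its median minus background exceeded the 95th percentile of 153 negative control spots on at least 3 of 6 arrays. Accessions were matched to symbols in a RefSeq table of GRCr8. The brightest of the kept probes stood for a symbol, which left 21850 tested genes or probes, 5692 with a symbol. Groups were compared with limma 3.58.1 in R 4.3.3 (lmFit and eBayes, two-sided), with Benjamini-Hochberg adjustment over all of them. The fit was tested on simulated data. The number of arrays limits the precision.

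Members and lists were chosen with earlier results of these data known. Per-array levels go to the called members, the inhibitors and up to 4 further members of each of 5 phase groups with the smallest p, and all called genes of the wider lists are named. Alternatives covered background correction, scaling, filters, saturated probes, probe choice, the value table, slide, test, the replicate number and each array left out. Python 3.11.15, pandas 2.3.3 and matplotlib 3.10.9 served for promoters and plots, and jsonlite 2.0.0 for labels.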

Additional observations from a re-analysis of the deposited data

How the results depend on the processing

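The 7 called genes had a change below 0 in all 21 alternatives. The sign of the change was the same in every alternative for 22 of the 28 genes, the exceptions being Ccnd3, Cdk2, Cdk4, Lmnb1, Hmmr and Cdkn2b. How many passed depended on the setting, and the causes were not tested except where fewer arrays or more tested genes enter by construction. The counts and medians below are for LIPUS against control, where the values in the main setting are 817 lower and 632 higher among all tested genes, 7 lower among the 28, and 12 lower and 1 higher among the other cell cycle genes.

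With plain background subtraction 389 genes were called lower and 223 higher in all, 0 of the 28 (13 at an unadjusted p under 0.05) and so 0 in replication, G2/M and spindle, and 3 of the other cell cycle genes. The medians were −0.87 for G2/M, −0.68 for spindle and −0.27 for the other genes. With no background correction 637 were lower and 453 higher in all. Of the 28, 3 were then lower, all 3 in G2/M (median −0.69), with 0 in replication and spindle. Spot means and quantile scaling each gave 2 other cell cycle genes higher, with 680 and 582 higher in all. Spike-in scaling gave 3477 lower and 200 higher in all, with 5.4% of calls higher against 43.6%, and 16 of the 28 lower (median −0.76). Its phase groups had 1 G1/S (−0.34), 3 replication (−0.72), 4 spindle (−0.90) and 1 inhibitor (−0.45) gene lower, a G2/M median of −0.99, and 42 other genes lower (−0.56).

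Without a filter on dim probes 413 were lower and 242 higher in all, 1 of the 28 was lower, in G2/M, with 0 in replication and spindle and 3 other genes. Requiring signal on all 6 arrays gave 2 spindle genes and 20 other genes lower, with 1025 lower and 806 higher among all 16728 then tested. The value table gave 518 lower and 287 higher in all, 1 of the 28, with 0 in replication and G2/M, and 7 other genes lower and 0 higher. Its medians were −0.26 for G1/S, −0.16 for replication, −0.85 for G2/M, −0.41 for spindle and −0.28 for other genes. Using the mean of all probes of a gene, the medians were −0.36 for the 28 and −0.17 for G1/S, and 1 G1/S gene, Ccnd1, had a probe called lower. A trended, robust test gave 1312 lower and 1036 higher in all, 1 G1/S gene lower, and 24 other genes lower and 3 higher.

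The slide as a fixed block left 161 lower and 121 higher in all, and 0 of the 28 (12 at an unadjusted p under 0.05), with 0 in replication, G2/M and spindle, 1 other gene lower and 0 higher. The slide with both groups alone, where control 3 is assumed to vary like LIPUS, left 0 lower and 0 higher in all (3338 at an unadjusted p under 0.05) and 0 in each list. In both, the medians were −0.58 for the 28, −0.20 for G1/S, −0.58 for replication, −0.59 for G2/M, −0.74 for spindle and −0.15 for other genes. The slide as a random block (correlation 0.209) gave 584 lower and 429 higher in all. Of the 28, 3 were lower, 3 in G2/M and 0 in replication and spindle, and 7 other genes were lower.

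Leaving out each array in turn gave 387 to 1254 lower and 228 to 913 higher in all, 1 to 5 of the 28 lower (median −0.45 to −0.37) and 3 to 14 other genes lower (−0.23 to −0.16). It gave 0 to 1 replication gene (−0.44 to −0.26), 1 to 3 G2/M genes (−0.78 to −0.61) and 0 to 1 spindle gene (−0.58 to −0.46) lower, and a G1/S median of −0.10 to 0.08. Without control 3, no slide holds both groups. With the replicate number as a block, 693 were lower and 482 higher in all, and 5 of the 28 were lower, with 0 in replication. Arrays of the same number correlated at −0.0124 to 0.00946 in their deviations from the group means, so no pairing by number was seen. Whether arrays of the same number share an animal or a batch was not tested.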
